A study of Mus musculus with 16 samples.

Results

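The 9 genes described here encode interferon beta and parts of the signalling route it uses in mouse macrophages. They are Ifnb1, the receptor subunits Ifnar1 and Ifnar2, the Janus kinases Jak1, Jak2 and Tyk2, and the transcription factors Stat2, Stat3 and Stat6. They were taken by name, and each matched 1 of the 43430 genes counted by RNA sequencing. Of the 9 genes, 8 had enough reads to pass the low-count filter of edgeR together with 11004 genes in all, and Ifnb1 did not, so it was examined from its reads. With lipopolysaccharide (LPS), a bacterial product, Ifnb1 was detected in all 8 libraries and in none of the 8 untreated ones, 7 of the 8 tested genes rose in both media, and Stat6 did not pass the test in either. Serine withdrawal changed none of the 8 tested genes past the threshold.

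Interferon beta is secreted after pattern recognition receptors such as TLR4 sense microbial products. It binds a receptor made of IFNAR1 and IFNAR2, whose associated kinases TYK2 and JAK1 phosphorylate STAT proteins. STAT2 enters the complex ISGF3 with IRF9 and a partner STAT and switches on interferon-stimulated genes, STAT3 acts mainly downstream of interleukin-6 and interleukin-10 family receptors, and STAT6 acts downstream of interleukin-4 and interleukin-13. JAK2 serves other receptors, among them those for interferon gamma and several cytokines and growth factors.

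The cells were bone marrow-derived macrophages, grown for 6 days from the marrow of C57BL/6J mice with macrophage colony-stimulating factor at 20 ng/mL and then moved to MEM, a defined culture medium. The 4 groups were cells treated with LPS, an outer membrane component of bacteria that TLR4 senses, in MEM without serine, LPS-treated cells in complete MEM, untreated cells in MEM without serine, and untreated cells in complete MEM. The LPS dose was 100 ng/mL, the cells were lysed for RNA after 4 h, and each group had 4 libraries. The labels give no age or sex of the mice and do not say whether the replicates were separate animals, so the p-values rest on the spread among the libraries, which may be technical in part.

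Library totals were 6573849 to 7892215 counts in LPS-treated cells without serine, 6240112 to 8092528 in LPS-treated cells with serine, 2871477 to 10043362 in untreated cells without serine and 5760734 to 7845261 in untreated cells with serine. In all groups, Xist was at 0 in replicate 1 and Y-linked genes had 1214 to 2420 counts there, against 351 to 1477 and 1 to 16 in the other 12 libraries, so that replicate 1 did not share 1 source animal with the rest, and sex and replicate number are confounded. The shallowest library was replicate 4 of untreated cells without serine, and results that rest on it are given with and without it. All 10 macrophage markers were detected in each group and summed to between 18793 and 30091 CPM, which are counts scaled to a common library total. The 6 dendritic cell markers summed to 9.16 to 15.6 CPM with LPS and 0.696 to 2.36 without it, and 6 markers of plasmacytoid dendritic cells, of which Klk1 was at 0, to 194 to 372 and 97.8 to 149. Over the 16 libraries Tcf4 of the plasmacytoid list had 21606 counts, against 108 for Ccr9, 75 for Siglech, 57 for Ly6d and 13 for Pacsin1. The sum of that list is therefore mainly the level of Tcf4. Among the dendritic cell markers Xcr1 had the most counts, at 457, and Zbtb46 followed at 101. Stromal markers, 4 in all, summed to 14.2 to 44.4 with LPS and 0 to 19.6 without it, while Cd3e, Cd3g and Cd3d of T cells and Pax5 of B cells were at 0 throughout. The part of these cells in the results was not tested, and in RNA from whole cultures fewer cells of a type and less RNA per cell cannot be told apart.

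The promoter stretches of 5 genes are shown because these genes mark the range of the LPS response, from Ifnb1, with no count without LPS, through Jak2 and Stat2, the strongest risers, and Ifnar2, a receptor subunit with a smaller rise, to Stat6. Each runs 5′ to 3′ on the strand of the gene over 150 bases, from 250 to 101 bases before the start that RefSeq annotates in GRCm38.p6, the mm10 build of the counts. Capitals mark a match to a motif searched on both strands.
Ifnb1, chr4:88522895-88523044, minus strand: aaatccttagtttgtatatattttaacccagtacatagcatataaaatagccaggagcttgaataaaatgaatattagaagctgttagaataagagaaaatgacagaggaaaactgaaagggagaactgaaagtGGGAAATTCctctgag
Jak2, chr19:29251553-29251702, plus strand: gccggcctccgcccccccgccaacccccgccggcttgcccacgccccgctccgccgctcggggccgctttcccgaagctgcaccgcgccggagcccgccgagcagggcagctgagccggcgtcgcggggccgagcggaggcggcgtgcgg
Stat2, chr10:128270248-128270397, plus strand: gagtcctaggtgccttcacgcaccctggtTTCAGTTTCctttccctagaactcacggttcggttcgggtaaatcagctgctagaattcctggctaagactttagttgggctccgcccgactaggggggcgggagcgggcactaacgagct
Ifnar2, chr16:91372533-91372682, plus strand: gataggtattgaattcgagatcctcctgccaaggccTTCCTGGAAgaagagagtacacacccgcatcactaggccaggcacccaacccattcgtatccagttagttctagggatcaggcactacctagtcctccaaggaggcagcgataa
Stat6, chr10:127642736-127642885, plus strand: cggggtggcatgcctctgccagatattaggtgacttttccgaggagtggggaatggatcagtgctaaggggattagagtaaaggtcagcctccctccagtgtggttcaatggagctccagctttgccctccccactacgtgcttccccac

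The motifs were searched in the whole window of each of the 9 genes, from 250 bases before to 50 bases after the start, and in all 32817 windows of the same length. The NF-kB type core GGGANNTTC was found in 3.94% of all windows and among the 9 genes in Ifnb1 alone, at positions -116 to -108 from the start, in the stretch known as the interferon beta enhancer. The core of the interferon-stimulated response element, GAAANNGAA, was found in 8.55% of windows and here in Stat2 alone, on the minus strand at positions -221 to -213. The STAT-binding core TTCNNNGAA, which reads the same on both strands, was found in 8.29% of windows, and here in Ifnar2, at positions -214 to -206, and in Ifnar1, where it spans the start. The AP-1 motif TGANTCA was in 7.81% of windows and in 0 of the 9. These matches describe letters and not binding.

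The first question was what LPS did to the 9 genes. Levels are given as CPM scaled by TMM, a factor per library that sets aside the genes that change most. Changes are log2 fold changes, LPS over untreated, ± SE, tested by quasi-likelihood in edgeR with p adjusted by Benjamini-Hochberg over 11004 genes and a threshold of 0.05. In medium without serine 7 of 8 tested genes rose and 0 fell, where 27.1% of all tested genes rose, 29.7% fell and 56.8% changed. In medium with serine 7 of 8 also rose and 0 fell, where 27.6% of all tested genes rose, 28.2% fell and 55.8% changed. The median log2 change of the 8 genes was 1.69 without serine and 1.51 with serine, against -0.12 and -0.03 over all genes tested. In medium without serine the LPS and untreated libraries of 8 of the 9 genes did not overlap, all 8 higher with LPS, where 25.3% of all tested genes were higher without overlap and 22.4% lower. In medium with serine those of all 9 genes did not overlap, 8 higher and Stat6 lower, where the shares were 30.7% and 30.9%.

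Ifnb1 (ENSMUSG00000048806, chr4:88522025-88522774, minus strand), the interferon beta gene, was detected with LPS only, at a low level. Replicates 1 to 4 had 18, 8, 4 and 6 counts in LPS-treated cells without serine and 29, 2, 10 and 11 in LPS-treated cells with serine, against 0 in each of the 8 untreated libraries. Every LPS library lay above every untreated one, and replicate 1 was the highest in both media. Taking 3 counts summed over 4 untreated libraries as the limit that a count of 0 allows, Ifnb1 was at least 17.6-fold higher with LPS in medium without serine and at least 25.8-fold higher in medium with serine. Leaving out 1 library at a time, added after seeing the data, moved these bounds over 10.98-fold to 20.4-fold without serine, the lowest being without untreated replicate 1, and over 16.02-fold to 33.0-fold with serine, the lowest being without LPS replicate 1, which held 29 of the 52 counts. A two-sided exact permutation test of its CPM gave p = 0.0286 in each medium, the smallest that 70 arrangements allow, and 0.0429 adjusted over 3 comparisons. With 1 library left out the exact p was 0.0286 where an LPS library was missing and 0.0571, which misses the threshold, where an untreated one was. All untreated libraries were at 0, so the value was 0.0571 whichever of them was dropped. It reflects the test with 4 LPS against 3 untreated libraries and not any single untreated library. With no low-count filter edgeR also called Ifnb1 higher, with adjusted p of 0.000261 without serine and 5.27e-05 with serine. Of 19 other interferon genes, which include 13 interferon alpha genes, interferon gamma and interferon lambda genes, 18 had no count in any of the 16 libraries, and Ifnk had 6 in all.

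Both receptor subunits rose, by 2.47-fold to 3.41-fold. Ifnar1 (ENSMUSG00000022967, chr16:91485238-91507441, plus strand), which binds TYK2, stood at 706, 526, 596 and 689.9 CPM in LPS-treated cells without serine and at 253, 185, 197 and 100.2 CPM in untreated cells without serine. Its log2 change was 1.77 ± 0.21 (edgeR adjusted p = 2.02e-06), a 3.41-fold rise. The value of 100.2 belongs to the shallowest library, and without it the change was 1.57. In medium with serine it stood at 658, 541, 604 and 679.5 CPM with LPS, against 248, 194, 182 and 211 CPM without LPS, a change of 1.57 ± 0.21 (edgeR adjusted p = 6.76e-06). Ifnar2 (ENSMUSG00000022971, chr16:91372783-91405589, plus strand), the JAK1-binding subunit and the main ligand-binding chain, changed by 1.32 ± 0.14 without serine, at 323 ± 49.3 CPM with LPS and 129 ± 15.4 CPM untreated (SD, n = 4 each; edgeR adjusted p = 7.74e-07). With serine it changed by 1.30 ± 0.14, at 336 ± 43.5 CPM with LPS and 136 ± 18.3 CPM untreated (edgeR adjusted p = 8.64e-07). The LPS and untreated libraries did not overlap for either subunit.

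The kinases rose by unequal amounts. Jak2 (ENSMUSG00000024789, chr19:29251828-29313080, plus strand) stood at 1610.2, 1545, 1793 and 1936 CPM in LPS-treated cells without serine and at 104, 65.7, 67.3 and 47.9 CPM in untreated cells without serine. That is a log2 change of 4.59 ± 0.22, or 24.0-fold (edgeR adjusted p = 5.45e-11). With serine it stood at 1538, 1519, 1721 and 1869.7 CPM with LPS, against 101, 65.3, 69.1 and 70.2 CPM untreated, a change of 4.44 ± 0.22 (edgeR adjusted p = 5.84e-11). Replicate 1 was the highest of the untreated libraries in both media, yet every LPS library lay far above it.

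Jak1 (ENSMUSG00000028530, chr4:101152367-101265282, minus strand), the kinase held by IFNAR2, had 699, 636, 711 and 748 CPM in LPS-treated cells without serine and 308, 309, 315 and 141 CPM in untreated cells without serine. It rose by 1.38 ± 0.19 (edgeR adjusted p = 1.04e-05), or by 1.17 without the shallowest library. With serine it had 626, 571, 625 and 693 CPM with LPS, against 277, 299, 311 and 308 CPM untreated, and rose by 1.07 ± 0.19 (edgeR adjusted p = 0.000122). The call in medium with serine was lost under total-count scaling, where the change was 0.45 with an adjusted p of 0.0666. Tyk2 (ENSMUSG00000032175, chr9:21104069-21127346, minus strand), the kinase held by IFNAR1, rose by 1.61 ± 0.18 without serine, at 124 to 143 CPM with LPS and 23.9 to 53.6 CPM untreated (edgeR adjusted p = 8.13e-07), the lowest untreated value again being that of the shallowest library, without which the change was 1.43. With serine it rose by 1.45 ± 0.18, at 125 to 157 CPM with LPS and 46.9 to 53.8 CPM untreated (edgeR adjusted p = 2.33e-06).

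**Figure D1:**
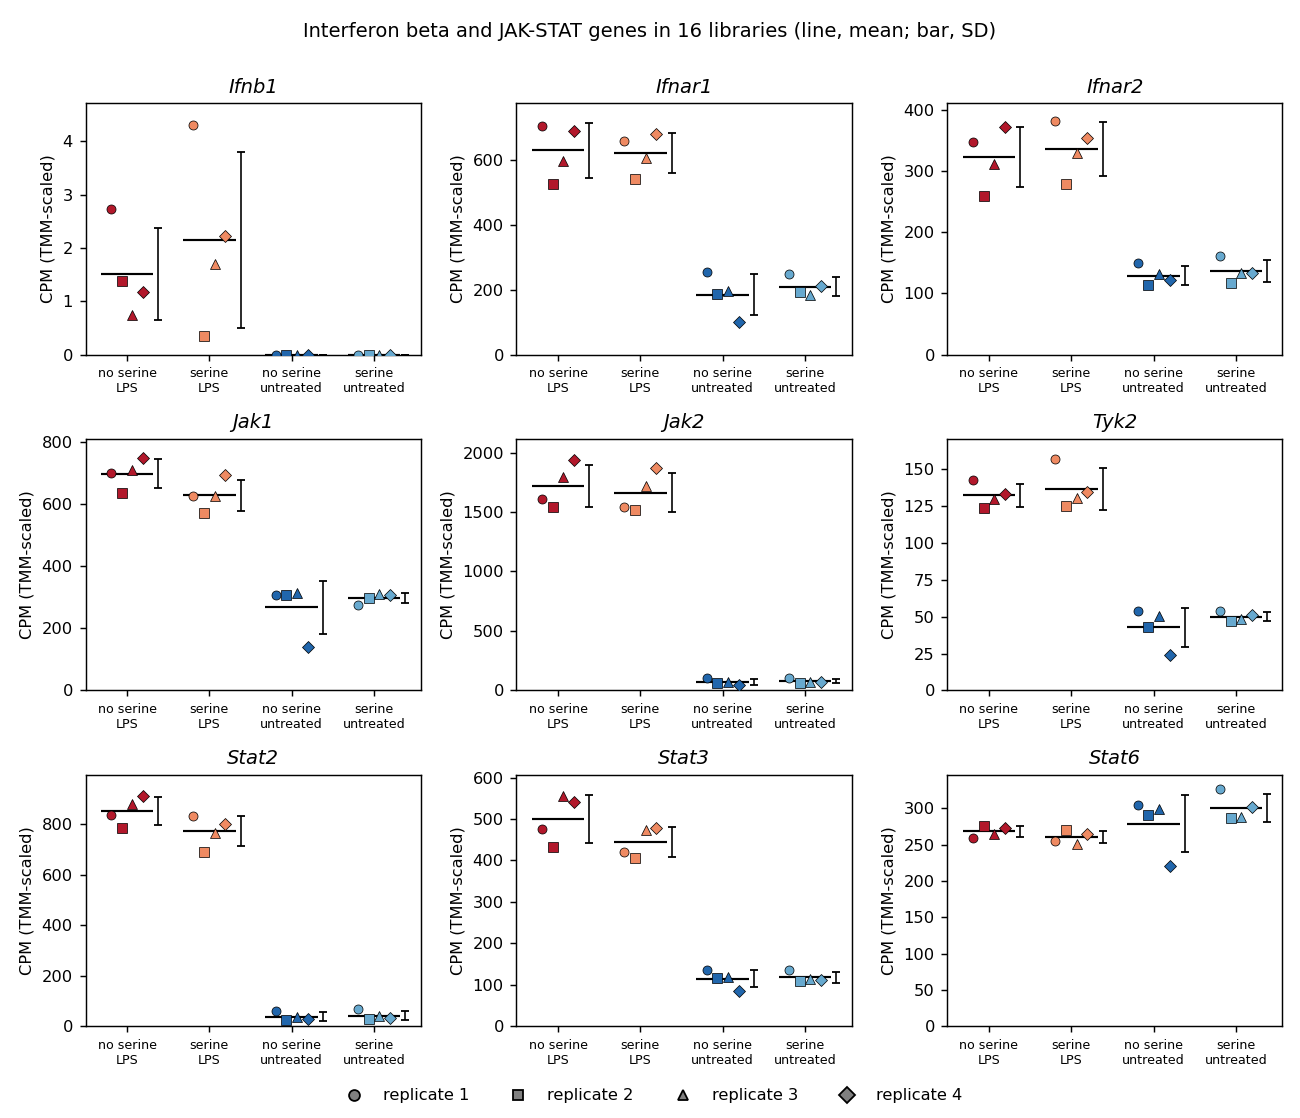
CPM of the 9 genes in the 16 libraries, with 1 panel per gene, 1 column per group, a symbol for each replicate number, a line at the group mean and a bar of ± SD. Jak2 and Stat2 separate LPS from untreated libraries most widely, and Stat6 stays between 221 and 327 CPM. Replicate 4 of untreated cells without serine lies low for Ifnar1, Jak1, Tyk2 and Stat6, and is also the lowest of its group for Jak2 and Stat3.

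The 3 STAT genes differed in what LPS did to them. Stat2 (ENSMUSG00000040033, chr10:128270576-128292849, plus strand), the ISGF3 subunit, had 837, 785, 881 and 913 CPM in LPS-treated cells without serine and 61.5, 26.1, 36.9 and 29.0 CPM in untreated cells without serine. It rose by 4.46 ± 0.30 (edgeR adjusted p = 2.09e-09). With serine it had 834, 692, 767 and 802 CPM with LPS, against 67.2, 27.6, 39.7 and 31.6 CPM untreated, a change of 4.22 ± 0.29 (edgeR adjusted p = 3.20e-09). Replicate 1 again stood highest in both untreated groups, and with replicate 1 of every group left out the change was 4.78 without serine and 4.48 with serine.

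Stat3 (ENSMUSG00000004040, chr11:100885098-100939540, minus strand) had 476, 432, 557 and 540.4 CPM in LPS-treated cells without serine and 135, 118, 119.5 and 86.0 CPM in untreated cells without serine, a rise of 2.12 ± 0.14 (edgeR adjusted p = 2.14e-09). With serine it had 420.5, 406, 474 and 479 CPM with LPS, against 137, 109, 114 and 112 CPM untreated, a rise of 1.92 ± 0.14 (edgeR adjusted p = 6.27e-09). The groups did not overlap in either medium. Without the shallowest library the changes without serine were 2.01 for Stat3, 4.35 for Stat2, 4.44 for Jak2 and 1.30 for Ifnar2. Stat3 shares 72 bases with Stat5a on the opposite strand, and the library kit does not mark strand, so reads in that overlap cannot be assigned. Stat5a averaged 583 counts per library, against 1869.7 for Stat3.

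Stat6 (ENSMUSG00000002147, chr10:127642986-127660957, plus strand) was the exception. Without serine it had 259, 275, 265 and 273 CPM in LPS-treated cells and 304, 291, 299 and 221 CPM in untreated cells, groups that overlapped only through the shallowest library. Its log2 change was -0.06 ± 0.11 (edgeR adjusted p = 0.654; 95% interval -0.28 to 0.17). Without that library the change was -0.15 (edgeR adjusted p = 0.0589). With serine it had 255, 269, 251 and 264 CPM with LPS and 327, 286, 287 and 302 CPM untreated, so that all 4 LPS libraries lay below all 4 untreated ones, but the change of -0.21 ± 0.11 did not pass (edgeR adjusted p = 0.106; 95% interval -0.43 to 0.02). With a replicate block and without the shallowest library it was called lower in both media, at -0.16 (adjusted p = 0.0194) without serine and -0.21 (adjusted p = 0.00144) with serine. A fit of the medium with serine alone also called Stat6 lower, at -0.22 (adjusted p = 0.0193). Stat6 shares 40 bases with Nab2 on the opposite strand, a gene that averaged 211 counts per library against 2025.5 for Stat6.

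Scaling bears on all of these values. Under total-count scaling, which divides by the sum of counts alone, the median log2 change of all tested genes moved by -0.57 without serine and by -0.62 with serine. Stat6 was then called lower, at -0.64 (adjusted p = 0.000705) without serine and -0.83 (adjusted p = 6.90e-05) with serine. Over all tested genes 20.4% and 20.6% of the genes called were then higher, against 47.7% and 49.5% under TMM scaling. The counts of the 8 tested genes became 7 higher and 1 lower without serine, and 6 higher and 1 lower with serine. In medium with serine Stat6 lay at -0.21 where the median of all genes was -0.03 and at -0.83 where it was -0.64.

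**Figure D2:**
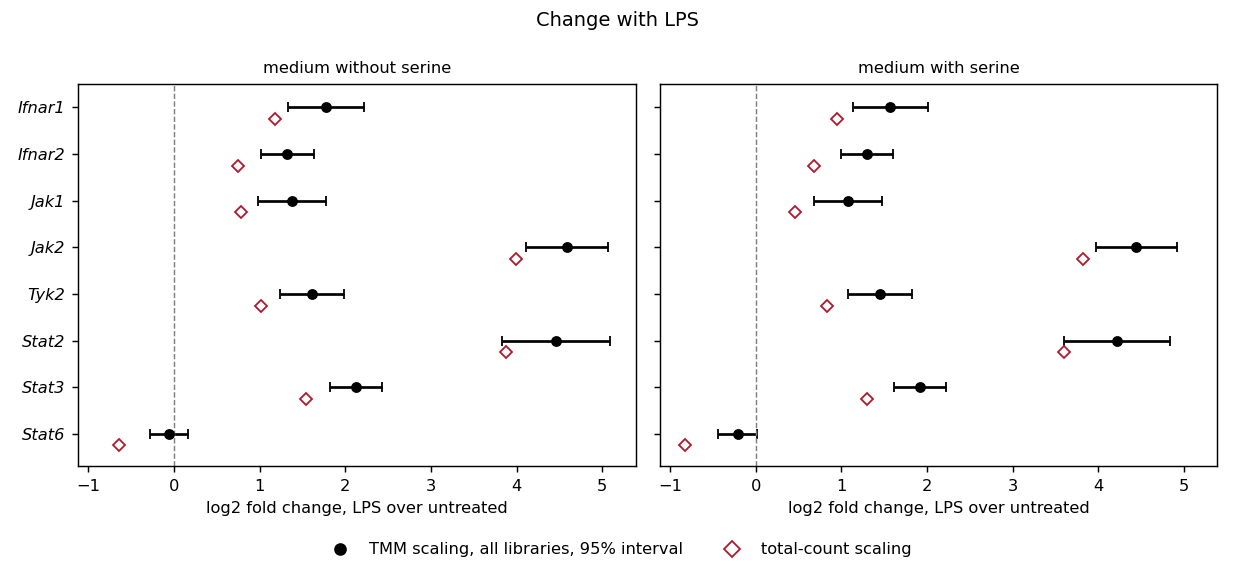
log2 fold changes with LPS over untreated (horizontal axis) of the 8 tested genes, in medium without serine on the left and with serine on the right, with 95% intervals under TMM scaling and diamonds for total-count scaling. Jak2 and Stat2 lie above 3.5 under both scalings, and Stat6 is nearest 0 under TMM scaling and below 0 under total-count scaling.

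The order of the 9 genes differed between LPS-treated and untreated cells. Levels between genes were compared as RPKM, here TMM-scaled CPM per kilobase of the gene length that the authors deposited. In LPS-treated cells without serine Jak2 led at 173 ± 17.8 RPKM, followed by Stat2 at 97.1 ± 6.33, Jak1 at 67.9 ± 4.53 and Ifnar1 at 49.6 ± 6.62 (SD, n = 4 each), with no overlap between neighbours. Stat6 at 43.3 ± 1.24 and Ifnar2 at 40.8 ± 6.23 overlapped each other, and Stat6 overlapped Ifnar1. Tyk2, Stat3 and Ifnb1 closed that order at 28.7 ± 1.69, 21.2 ± 2.46 and 2.01 ± 1.15 RPKM. LPS-treated cells with serine had the same order except that Ifnar2, at 42.4 ± 5.49, stood above Stat6, at 42.0 ± 1.35, with overlap.

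In untreated cells without serine Stat6 led at 45.0 ± 6.33 RPKM and did not overlap Jak1 at 26.1 ± 8.27. Ifnar2, Ifnar1, Tyk2, Jak2, Stat3 and Stat2 followed at 16.3, 14.5, 9.28, 7.13, 4.85 and 4.37 RPKM, each overlapping its neighbour. Untreated cells with serine gave the same order, from Stat6 at 48.6 ± 3.06 through Jak1 at 29.0 ± 1.51 to Stat3 at 4.99 ± 0.537 and Stat2 at 4.73 ± 2.03. There, only Ifnar2 and Ifnar1, and Stat3 and Stat2, overlapped as neighbours. The deposited length of Stat3 is 23622 bases, the longest of the 9, and its RPKM rests on that figure.

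**Figure D3:**
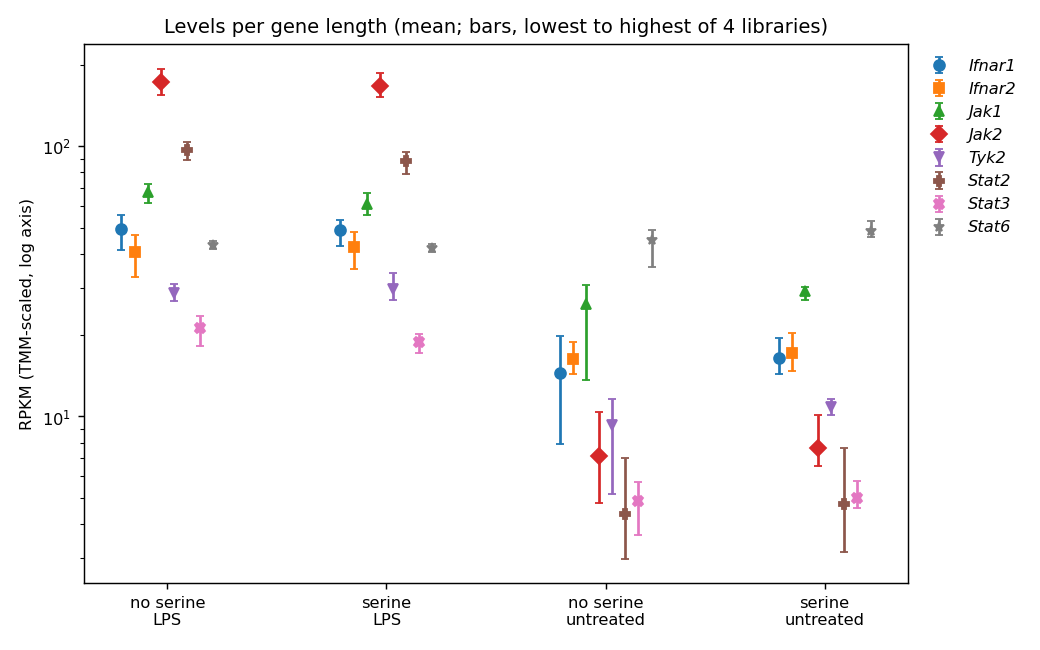
RPKM of the 8 tested genes (log axis) in the 4 groups, as group means with bars from the lowest to the highest of 4 libraries. Jak2 and Stat2 are the highest pair in both LPS groups, and Stat6 is the highest in both untreated groups, at 45.0 and 48.6 RPKM.

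Ratios of counts between 2 of the genes in the same library do not depend on library scaling. There were 6 such ratios and 24 comparisons, each tested with a two-sided exact permutation test. The ratio of Stat3 to Stat6 was 1.57 to 2.10 in LPS-treated cells without serine and 0.390 to 0.445 in untreated cells without serine, a 4.55-fold difference. With serine it was 1.51 to 1.89 with LPS and 0.373 to 0.418 untreated, a 4.36-fold difference. Of this pair, Stat3 had more counts in every LPS library and Stat6 in every untreated one. These counts are not divided by gene length. Per length Stat6 stood above Stat3 with LPS too, at 43.3 against 21.2 RPKM without serine and 42.0 against 18.8 RPKM with serine. Stat2 to Stat6 differed by 24.2-fold without serine and 22.8-fold with serine, and Stat2 to Stat3 by 5.33-fold and 5.22-fold. Among the kinases Jak2 to Jak1 differed by 9.14-fold without serine and 10.5-fold with serine, and Tyk2 to Jak1 by 1.18-fold and 1.30-fold. Ifnar2 to Ifnar1 was lower with LPS, at 0.696-fold without serine and 0.827-fold with serine. The first value rests on the shallowest library, whose ratio of 1.21 lay above the 0.588 to 0.671 in the other 3 untreated libraries without serine, and without it the difference was 0.821-fold. The other 5 ratios moved less, the most being that of Jak2 to Jak1, at 9.90-fold without that library. The 12 LPS differences had exact p = 0.0286, the smallest the design allows, and 0.0571 adjusted over 24 tests, which misses the threshold. Each of the 12 was already at that limit, so with these 24 tests no larger LPS difference could have passed. The miss therefore says nothing about the size of the differences.

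The second question was what serine withdrawal did to these genes. In LPS-treated cells 0 of 8 tested genes passed, where 0.0636% of all tested genes did, and in untreated cells 0 of 8 passed, where 0% did. The lowest edgeR adjusted p was 0.9996 in LPS-treated cells and 0.833 in untreated cells, and 0 of the 8 had an unadjusted p under 0.05 in either, against 676 and 548 genes over all tested. When the replicate number entered the model as a block, edgeR called 98 genes in LPS-treated cells and 9 in untreated cells over all tested, 0.891% and 0.0818%, and 0 of the 8. With that block and without the shallowest library, a setting chosen after seeing the data, edgeR called 922 genes in LPS-treated cells. Of the 8, Jak1 then came nearest, at a log2 difference of 0.15 (edgeR adjusted p = 0.0756). Stat3 followed at 0.17 (edgeR adjusted p = 0.177), and neither passed. DESeq2 called 107 and 13 genes, among them 0 of the 8 of these genes it gave an adjusted p in LPS-treated cells and 0 of the 9 in untreated cells. The difference between the withdrawals, LPS-treated minus untreated, was called for 0 of the 8 and for 0% of all tested genes, with 253 genes and 0 of the 8 under an unadjusted p of 0.05, and DESeq2 called 1 gene, not among the 9. These differences lay between 0.02 for Ifnar2 and 0.30 for Jak1 on the log2 scale, and that of Jak1 had a 95% interval of -0.25 to 0.86. They too rest on the shallowest library, without which they lay between -0.02 for Tyk2 and 0.14 for Stat2. That of Jak1 was then 0.097, and those of Ifnar1 and Jak2 were 0.00098 and 0.0022.

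In LPS-treated cells the largest difference with withdrawal was that of Stat3, 0.17 ± 0.14 on the log2 scale without over with serine (95% interval -0.12 to 0.46). Jak1 followed at 0.15 ± 0.19 (-0.24 to 0.54) and Stat2 at 0.14 ± 0.26 (-0.40 to 0.69). Jak2 stood at 0.05 ± 0.19 (-0.36 to 0.46), Stat6 at 0.04 ± 0.11 (-0.18 to 0.27), Ifnar1 at 0.02 ± 0.20 (-0.41 to 0.45), Tyk2 at -0.05 ± 0.17 (-0.41 to 0.31) and Ifnar2 at -0.06 ± 0.14 (-0.36 to 0.24). The widest of these intervals, that of Stat2, reaches 1.61-fold, so a larger rise lies outside the intervals of all 8. Between same-numbered libraries Jak1, Jak2, Stat2, Stat3 and Stat6 were higher without serine in 4 of 4 pairs and Tyk2 was lower in 4 of 4. Over all tested genes 34.6% had the same direction in 4 of 4 pairs here, 18.6% higher and 16% lower. The pair differences of Jak1 were 0.16, 0.16, 0.19 and 0.11 and those of Stat3 were 0.18, 0.09, 0.23 and 0.17 on the log2 scale.

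Ifnb1 averaged 1.51 ± 0.861 CPM in LPS-treated cells without serine and 2.14 ± 1.65 CPM with serine (SD, n = 4 each), and was lower without serine in 3 of 4 pairs. An exact permutation test gave p = 0.543. The difference of the means, from 36 counts without serine and 52 with serine, was smaller than the SD of either group. Without LPS replicate 1 of the medium with serine the direction turned, at 1.51 CPM without serine and 1.42 CPM with serine (exact permutation p = 0.943). Among the ratios, Jak2 to Jak1 was 2.30 to 2.59 without serine and 2.46 to 2.75 with serine, and Tyk2 to Jak1 was 0.178 to 0.204 without serine and 0.195 to 0.252 with serine. Both were lower without serine in 4 of 4 pairs, with exact p = 0.0857 and 0.147 adjusted, which does not pass.

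In untreated cells the 8 log2 changes with withdrawal lay between -0.20 for Tyk2 and -0.04 for Stat3, all negative, with intervals that included 0. With the shallowest library left out they lay between -0.05 for Ifnar2 and 0.07 for Stat3, and those of Ifnar1, Jak1, Jak2 and Stat3 were above 0 while Stat2 stood at 0.00. In the pair that holds that library the log2 differences were -1.07 for Ifnar1, -1.13 for Jak1 and -1.10 for Tyk2. They were -0.55 for Jak2, -0.45 for Stat6 and -0.39 for Stat3. The other 3 pairs lay between -0.11 and 0.16 for all of these genes. Ifnar2 and Stat2 were lower in 4 of 4 pairs, where 9.87% of all tested genes were lower and 8.72% higher in 4 of 4.

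**Figure D4:**
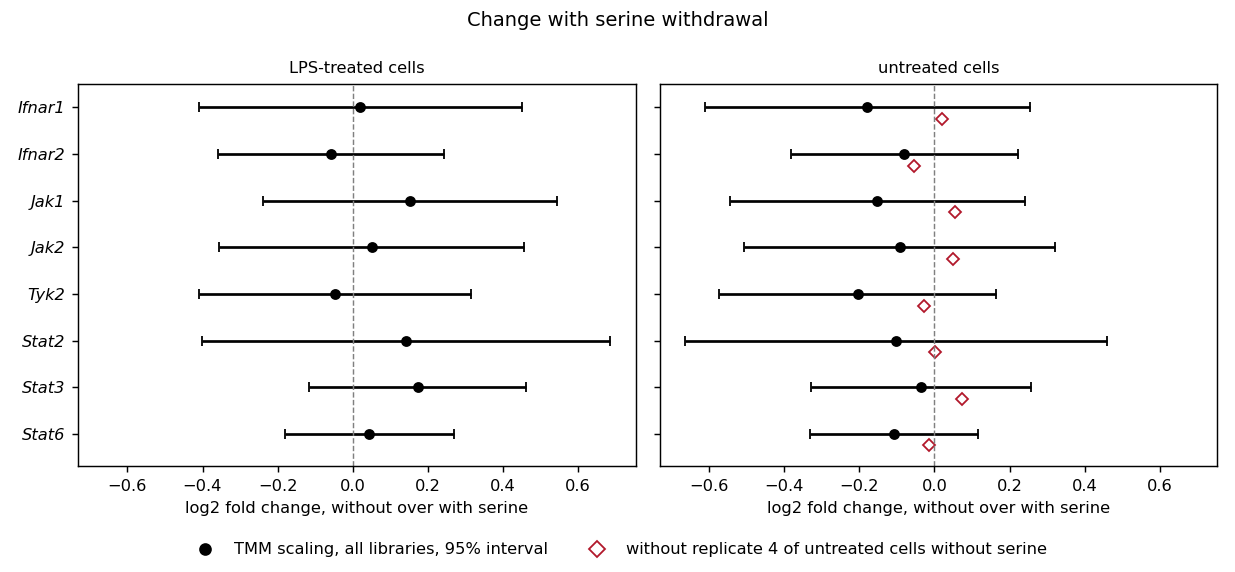
log2 fold changes with serine withdrawal, without over with serine (horizontal axis), of the 8 tested genes with 95% intervals, in LPS-treated cells on the left and untreated cells on the right. All intervals include 0, and the diamonds on the right, values without the shallowest library, lie between -0.05 and 0.07.

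The genes around the 9 were followed in lists, described by counts and medians of log2 change with LPS without a test of the list, and values are given for medium without serine and then with serine. Over all tested genes 27.1% and 27.6% rose, 29.7% and 28.2% fell, and 56.8% and 55.8% changed. The counts of each list stand beside these shares. Of the 14 genes that lead from TLR4 to Ifnb1, 13 rose without serine and 12 with serine, with medians of 1.60 and 1.46. Nfkb1, an NF-kB precursor, rose by 3.40 ± 0.12 and 3.36 ± 0.12, Cd14, the LPS co-receptor, by 2.88 ± 0.21 and 3.14 ± 0.21, and the TBK1 adaptor Tank by 2.80 ± 0.15 and 3.03 ± 0.16 (edgeR adjusted p at most 6.49e-09). Irf3, whose product is activated by phosphorylation, was at -0.26 (adjusted p = 0.182) and -0.12 (adjusted p = 0.544) by the same test. Under total-count scaling it was called lower, at -0.81 (adjusted p = 0.000193) and -0.74 (adjusted p = 0.00040), and the list then had 9 higher and 1 lower without serine and 10 higher and 2 lower with serine.

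Of 23 ISGF3 target genes 22 rose without serine and 23 with serine, with medians of 5.62 and 5.49. Cxcl10, a chemokine for activated T cells, averaged 5468 ± 965 CPM with LPS and 4.27 ± 2.97 CPM untreated without serine, and 5975 ± 1010.5 CPM with LPS and 4.23 ± 2.87 CPM untreated with serine (SD, n = 4 each). Rsad2, the antiviral protein viperin, rose by 8.78 ± 0.55 and 8.85 ± 0.56, and Cmpk2, a mitochondrial nucleotide kinase, by 9.10 ± 0.61 and 8.94 ± 0.60 (edgeR adjusted p at most 2.13e-09). Irf9, the DNA-binding subunit of ISGF3, rose by 1.48 ± 0.13 and 1.47 ± 0.13, and Stat5a by 3.43 ± 0.21 and 3.56 ± 0.21 (edgeR adjusted p at most 6.61e-08). Their list of other JAK, STAT and ISGF3 genes had 5 of 5 tested higher without serine and 4 of 5 with serine, against 3 of 5 in each medium under total-count scaling. Of the other interferon receptors, Ifngr2 rose by 0.59 ± 0.14 and 0.79 ± 0.14 and Ifngr1 by 0.58 ± 0.18 without serine (edgeR adjusted p at most 0.0106). Ifngr1 stood at 0.27 with serine (adjusted p = 0.218), and none of these 3 calls held under total-count scaling.

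Of 11 STAT3 target genes 10 rose in both media, with medians of 1.77 without serine and 1.62 with serine. Under total-count scaling 9 rose without serine and 6 with serine, with medians of 1.17 and 1.01. The interleukin-1 receptor antagonist gene Il1rn rose by 5.82 ± 0.19 and 5.91 ± 0.19 and the kinase gene Pim1 by 4.02 ± 0.21 and 4.28 ± 0.21 (edgeR adjusted p at most 1.32e-10). Among 12 tested ligands and receptors that use STAT3, 6 rose and 1 fell without serine, and 5 rose and 2 fell with serine. The share of this list that changed was thus near that over all tested genes, 56.8% and 55.8%. Il6 had 2151 counts with LPS in medium without serine and 3371 with it, against 0 over each untreated group. Il10 rose by 5.38 ± 0.39 and 5.71 ± 0.38 and Il27 by 8.90 ± 0.45 and 8.85 ± 0.42 (edgeR adjusted p at most 4.85e-09). Under total-count scaling 4 of these 12 were higher and 5 lower in either medium, so the direction of that list depends on the scaling.

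Genes tied to STAT6 were followed in a pair of lists. Of 12 STAT6 target genes known from mouse macrophages 6 were tested, of which 3 rose without serine and 2 with serine, with medians of 0.54 and 0.38. None fell, so the share that changed was not above that over all tested genes, 56.8% and 55.8%. Under total-count scaling the medians were below 0, at -0.041 and -0.24, with 2 higher and 0 lower without serine and 2 higher and 1 lower with serine. Ccl22, a chemokine, had 493 counts with LPS and 6 untreated in medium without serine, and 810 and 3 in medium with serine, and Cish, a SOCS-family gene, rose by 4.15 ± 0.54 and 4.81 ± 0.58 (edgeR adjusted p at most 5.54e-06). Klf4, a transcription factor gene, rose by 0.59 ± 0.16 without serine (edgeR adjusted p = 0.00589) and stood at 0.00 under total-count scaling. Among 4 tested ligands and receptors that use STAT6, Il13ra1 rose by 3.54 ± 0.30 and 3.26 ± 0.29 and the shared chain Il2rg by 1.33 ± 0.19 and 1.37 ± 0.19 (edgeR adjusted p at most 2.09e-05). Il4 fell by 2.68 and 2.28 on the log2 scale (edgeR adjusted p = 9.14e-05 and 0.00111), with 140 counts in all 16 libraries.

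The negative regulators moved in both directions, and their list shares Socs3, Usp18 and Cish with target lists above. Of 19 tested, 12 rose and 2 fell without serine, and 14 rose and 5 fell with serine, and under total-count scaling 8 rose and 6 fell in either medium. Socs3, an inhibitor of receptors that use STAT3, averaged 1112 ± 84.1 CPM with LPS and 5.42 ± 1.91 CPM untreated without serine, a rise of 7.59 ± 0.21. With serine it averaged 1240.4 ± 75.8 CPM with LPS and 5.40 ± 0.810 CPM untreated, a rise of 7.83 ± 0.22. Socs1, which inhibits JAK kinases, rose by 6.11 ± 0.39 and 7.56 ± 0.41, and Usp18, which displaces JAK1 from IFNAR2, by 5.96 ± 0.35 and 6.27 ± 0.36 (edgeR adjusted p at most 9.93e-10).

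**Figure D5:**
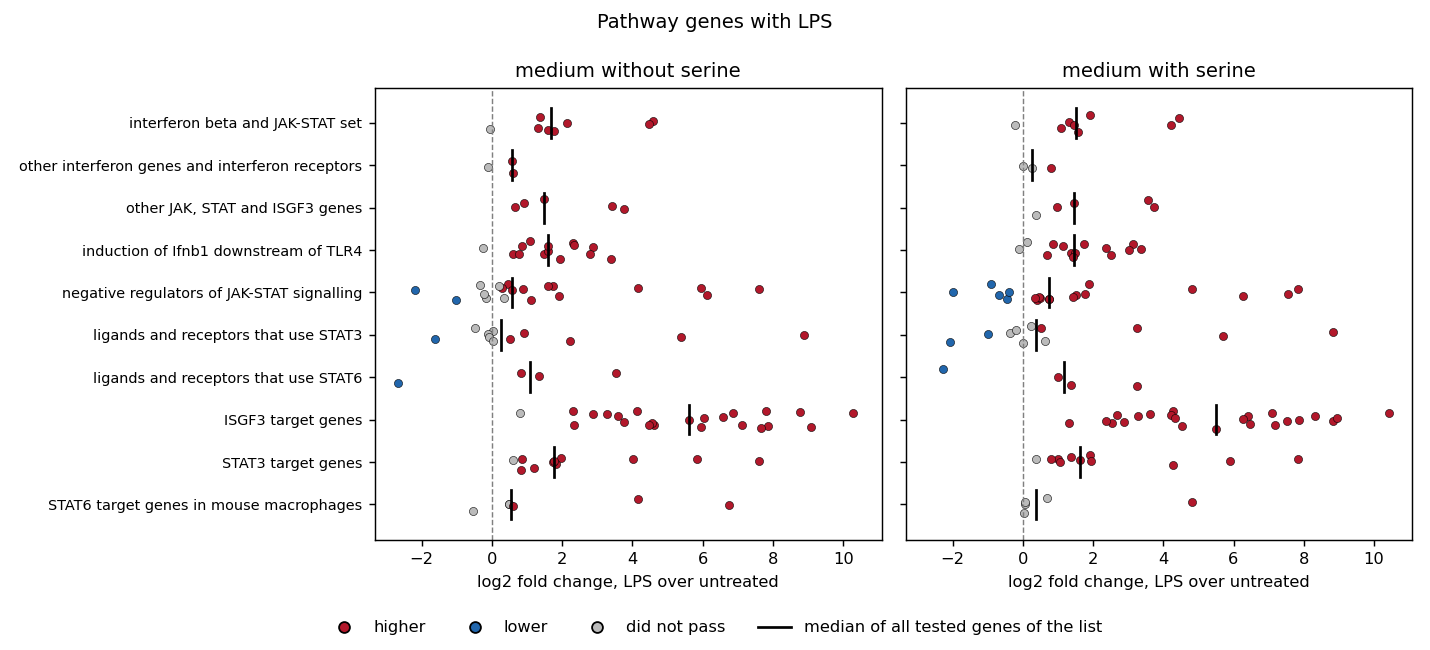
log2 fold changes with LPS over untreated (horizontal axis, TMM scaling) of the tested genes of each list, coloured by call, with a line at the list median, without serine on the left and with serine on the right. Genes with 3 or fewer counts over a group have no point but enter the median, and ISGF3 target genes lie farthest to the right, with medians of 5.62 and 5.49.

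In neither withdrawal did a gene of these lists pass the edgeR threshold, and the same held for the difference between the withdrawals. With the replicate block, 2 of the 6 tested STAT6 target genes passed in LPS-treated cells, where 0.891% of all tested genes did. Klf4 averaged 74.2 ± 9.06 CPM without serine and 41.0 ± 7.64 CPM with serine, a log2 difference of 0.86 ± 0.17 (adjusted p = 0.0635 without the block and 0.0171 with it). Ccl22 averaged 21.4 ± 7.31 CPM without serine and 34.1 ± 10.5 CPM with serine, a log2 difference of -0.68 ± 0.26 (adjusted p = 0.573 without the block and 0.0469 with it).

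The genes most like each of the 9 were found by Pearson correlation of log2 CPM over the 16 libraries, as a description, since the libraries share the split by LPS. Among the genes most like Jak2 was the interferon-inducible GTPase gene Irgm2, with r = 0.999. Stat2 was most like Trim30a and Gbp2, at 0.998 for both, and Stat3 most like Ifi207, at 0.997. Ifnar1 and Tyk2 were both most like Filip1l, at 0.996 each, Ifnar2 most like Zfp513 at 0.992, and Jak1 most like Rab5a at 0.995. Stat6 had a lower best match, Inpp4b at 0.961, and Ifnb1 one of 0.963 with Ppp1cb.

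Ifnar2 and Ifnar1 lie 79.6 kb apart on chromosome 16 with Il10rb between them, 0.575 kb from Ifnar2, and Il10rb stood at a log2 change with LPS of -0.12 without serine (edgeR adjusted p = 0.384) and 0.01 with serine (adjusted p = 0.940). Under total-count scaling Il10rb was called lower, at -0.68 (adjusted p = 2.23e-05) without serine and -0.61 (adjusted p = 6.39e-05) with serine. Stat6 and Stat2 lie 609.6 kb apart on chromosome 10. The authors' deposited table of each LPS comparison marks 8 of the 9 genes higher and leaves Stat6 unmarked. Their tables of the withdrawals mark 0, and that for untreated cells does not list Ifnb1. The largest adjusted p of any marked gene was 0.00999 in both LPS tables, so their marks stop below the threshold used here. Those tables list 11583 genes with serine and 11573 without serine. The share of all listed genes that they mark was not examined, so the 8 marks have no background share beside them.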

How the data were processed

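RNA from 16 cultures of mouse bone marrow-derived macrophages (4 groups of 4) was sequenced on a NextSeq500 from NEBNext Ultra libraries, per the labels' protocols. The submitters' processing notes name Trimmomatic 0.33, STAR, SAMtools, HTSeq, edgeR and mm10. The authors deposited counts per gene, which were used as they stand, and tables of their own comparisons with log2 fold changes, p-values and FDR, which were used only where named. Another 24 per-sample columns were not used.

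Counts were fitted with edgeR 4.0.16 (R 4.3.3): the filter filterByExpr, TMM scaling, 4 group means and the robust quasi-likelihood test, with Benjamini-Hochberg adjustment over 11004 genes. The estimated common dispersion of 0.0438 equals a coefficient of variation of 20.9% between libraries. Ratios and Ifnb1 were tested by exact permutation. Of 43430 gene IDs, 42462 matched a symbol. Counting limits such as that for Ifnb1 cover counting error only.

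Same-numbered libraries deviated together in each of 4 comparisons of groups (correlations of 0.12 to 0.66, against -0.37 to 0.14 for other numbers), so the numbers were taken as pairs. No 2 libraries were copies, since chi-square divided by its degrees of freedom was at least 2.04 in all 120 pairs.

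The genes, lists and tests were chosen with earlier results of these data known. Named list genes are up to 3 with the largest change past the threshold in each list and medium. They were drawn only from genes that moved the same way in all same-numbered pairs. Alongside them stand genes named for a role in the text, which were chosen after their values were seen. Some genes that the rules chose are not reported here. Alternatives were total-count and RLE scaling, DESeq2 1.42.0, other filters, a replicate block, fits of the compared groups alone and leaving out libraries. The scripts were tested on simulated data. Figures were drawn with matplotlib 3.10.9.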

Additional observations from a re-analysis of the deposited data

Results flagged for a closer look

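In 58 sets of 4 libraries checked, 4 had a library set apart from the other 3 by Dixon's criterion, which chance meets in about 1 of 20 sets. Replicate 4 of the untreated cells without serine, the shallowest library, had 141 CPM of Jak1, against 308 to 315 in the other 3 libraries of its group, and 221 CPM of Stat6, against 291 to 304. Replicate 1 of the untreated cells with serine had 101 CPM of Jak2, against 65.3 to 70.2 in the others. In the same library the log2 ratio of Jak2 to Jak1 was -1.46, against -2.19 to -2.13. The part of depth, or of the sex of the source of replicate 1, in these values was not tested.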

How the results depend on the processing

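Over 92 alternatives, the count of these genes called in either direction stayed within 1.5 times its main value of 7 in the LPS comparisons. In both withdrawals and their difference it was 0 in the main fit and stayed at 0. A like count can hold other genes. Under total-count scaling with serine Jak1 lost its call and Stat6 was called lower. Of 736 fold changes under alternatives, 693 kept direction and side of the threshold, 1 was weaker, 5 were stronger (the Stat6 calls in the text) and 37 reversed. Of 240 ratios 228 kept both and 12 reversed. No ratio passed in the main permutation test, and the lowest adjusted p of that kind under any alternative was 0.0571. The alternative that exchanges signs within same-numbered pairs allows no p under 0.125. For the ratios the side of the threshold therefore says little about stability, and the 228 speak to direction. Every reversal was in a serine withdrawal or the difference between withdrawals, except that of Stat6 with LPS without serine, at 0.014 with no filter. Ifnar1 in LPS-treated cells stood at -0.000190 with no filter and -0.018 without replicate 1 of all groups, a setting chosen after seeing the data. With the replicate block and without replicate 4 of untreated cells without serine, also chosen after seeing the data, the untreated withdrawal was 0.047 for Ifnar1, 0.088 for Jak1, 0.070 for Jak2 and 0.094 for Stat3. The difference was then -0.032 for Ifnar1, -0.038 for Ifnar2, -0.020 for Jak2 and -0.017 for Tyk2. Causes of these moves were not tested.

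Leaving out 1 library at a time moved the untreated withdrawal over -0.37 to 0.020 for Ifnar1, -0.16 to 0.0084 for Ifnar2, -0.24 to 0.056 for Jak1, -0.33 to 0.070 for Jak2, -0.44 to 0.23 for Stat2 and -0.13 to 0.074 for Stat3. In LPS-treated cells the ranges were -0.048 to 0.098 for Ifnar1, -0.14 to 0.034 for Ifnar2, -0.011 to 0.11 for Jak2 and -0.094 to 0.027 for Tyk2. For the difference they were -0.067 to 0.11 for Ifnar2, -0.019 to 0.38 for Jak2, -0.020 to 0.28 for Tyk2 and -0.090 to 0.58 for Stat2. Log2 ratios in the untreated withdrawal ranged over -0.20 to 0.23 for Stat2 to Stat6, -0.22 to 0.13 for Stat2 to Stat3, -0.021 to 0.27 for Jak2 to Jak1, -0.097 to 0.012 for Tyk2 to Jak1 and -0.069 to 0.28 for Ifnar2 to Ifnar1, and Stat2 to Stat3 in LPS-treated cells over -0.061 to 0.037.

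Counts over all tested genes moved more. The untreated withdrawal had 0 calls, against 13 with DESeq2, 2 with no filter, 9 with the replicate block, and 79 with the block and without the shallowest library. The LPS-treated withdrawal had 7, against 0 under total-count scaling, 107 with DESeq2, 4 with no filter, 98 with the block, 35 with only the groups compared, 0 without replicate 1 of all groups, 922 with the block and without the shallowest library, and 0 to 7 when 1 library was left out. The difference had 0, against 1 with DESeq2 and 8 with the block and without the shallowest library. The replicate block ended or made no call for the 8 genes with all libraries kept. A fit of only the groups compared could not be run for the difference between withdrawals. Ifnb1 had 88 counts in all and ranged over 2 to 29 counts within 1 group, so its values are imprecise.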

Other observations

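The summed level of the 23 ISGF3 target genes differed between replicate numbers in a way that turned round with LPS. In LPS-treated cells without serine replicates 1 to 4 summed to 38769.8, 49446, 65657 and 58181 CPM, against 1671, 487, 674 and 777 CPM in untreated cells without serine. With serine they summed to 38428, 46703, 63896 and 54454 CPM with LPS, against 1783, 495, 601 and 579 CPM untreated. Replicate 1 was the lowest library of both LPS groups and the highest of both untreated groups. The log2 change of Stat2 between same-numbered libraries was also smallest in replicate 1, at 3.76 without serine and 3.63 with serine, where the other 3 pairs lay between 4.26 and 4.96. That of Jak2 was 3.95 and 3.93, where the others lay between 4.53 and 5.33. Replicate 1 had the most Ifnb1 counts of both LPS groups. It is the number without Xist counts, and the part of sex in these values was not tested.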
